A study of Rattus norvegicus with 18 samples.

Results

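The miR-30 family of the rat heart was followed in small RNA libraries as 10 mature miRNAs from the miR-30a to miR-30e hairpins. These were the 5p arms rno-miR-30a-5p, rno-miR-30b-5p, rno-miR-30c-5p, rno-miR-30d-5p and rno-miR-30e-5p and the 3p arms rno-miR-30a-3p, rno-miR-30c-1-3p, rno-miR-30c-2-3p, rno-miR-30d-3p and rno-miR-30e-3p, written below without the prefix for rat. The members were taken by name, although earlier results of these data were known, and make up 10 of the 599 rat miRNAs listed in each library. A further row, miR-30b-3p, is not among the members and is given only for reference. The libraries came from heart tissue in 3 groups of 6: spontaneously hypertensive rats given QDG (labelled QDG), spontaneously hypertensive rats labelled as hypertension (SHR), and Wistar Kyoto rats labelled as normal (WKY). The design text says that SHR received NS or QDG, and spells out neither abbreviation. It leaves unclear whether WKY rats received NS. The labels state no age, dose or duration. Each group holds 1 strain and 1 condition, so strain, blood pressure and handling cannot be told apart between SHR and WKY, and QDG rats differ from WKY rats in both strain and treatment. The design text gives 6 rats per group, but no label ties a library to a rat. The p-values measure the spread between these libraries, which may in part be technical.

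A miRNA guides the Argonaute protein to messenger RNAs that pair with its seed, bases 2 to 8 from the 5′ end, and lowers their output. Members of a family share the seed and are therefore expected to recognise overlapping sets of messages. Each hairpin gives a 5p and a 3p arm, and for miR-30 the 5p arm is the one usually retained as the guide. The family is abundant in heart muscle cells, where it is known for restraining connective tissue growth factor, a matrix protein, as well as messages of autophagy and mitochondrial fission.

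RefSeq sequences (GRCr8) were matched for 6 of the 10 members. They are shown because the shared seed defines the family and because the bases after it decide which reads can be told apart. Capitals mark the seed.
miR-30a-5p: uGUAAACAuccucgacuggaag
miR-30e-5p: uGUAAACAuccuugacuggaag
miR-30c-5p: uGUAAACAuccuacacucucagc
miR-30a-3p: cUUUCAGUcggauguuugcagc
miR-30c-1-3p: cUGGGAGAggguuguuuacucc
miR-30c-2-3p: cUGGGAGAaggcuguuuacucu
Counted from the 5′ end, miR-30a-5p and miR-30e-5p differ at 1 of 22 positions (C13U, miR-30a-5p first). miR-30c-5p differs from miR-30a-5p at 5 of the 22 positions they share. The 3p arms of the miR-30c hairpins have a seed of their own and differ from each other at 3 of 22 positions (A9G, C12U and U22C, miR-30c-2-3p first). No source used here says how the authors assigned reads that fit several entries, so miR-30a-5p and miR-30e-5p in particular may share reads, and members are not independent of each other.

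Among the mature entries of the RefSeq table, miR-384-5p is the only other one found with the seed of miR-30a-5p.
miR-384-5p: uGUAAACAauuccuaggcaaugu
Its normalized read count was 3.82 ± 0.873 in QDG, 3.79 ± 0.923 in SHR and 4.39 ± 1.56 in WKY libraries (SD, n = 6 each), with 15 to 37 reads per library. The seed was thus carried in these hearts by miR-30 members many times more abundant than miR-384-5p.

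The hairpins lie in clusters. RefSeq places Mir30a at chr9:33233941-33234011 and Mir30c2 at chr9:33253682-33253765, both on the plus strand with 19670 bases between them. Mir30c1 at chr5:139634455-139634543 and Mir30e at chr5:139637450-139637541 lie on the minus strand with 2906 bases between them, both inside the span of Nfyc, which encodes a subunit of the transcription factor NF-Y. Mir30b and Mir30d neighbour each other on chromosome 7. These positions are those of GRCr8. No source used here names the authors' build. miR-30c-5p can be made from both Mir30c1 and Mir30c2, and its value cannot be divided between them, whereas each 3p arm comes from 1 hairpin. Whether the level of a 3p arm follows the output of its hairpin was not tested.

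Reads over all 599 entries numbered 6805472 to 8574447 in QDG, 6420666 to 10169581 in SHR and 6465025 to 9463554 in WKY libraries, and the scarcest member had at least 281 reads in every library. On principal components of all tested miRNAs, SHR replicate 5 stood apart on the second (7.58, the other libraries between -3.69 and 3.40) and WKY replicate 1 on the third (6.25, the others between -2.51 and 1.996). Of 8 miRNAs of cardiac muscle all were present in each library, with summed values of 492525 to 584606 in QDG, 511203 to 594629 in SHR and 506747 to 625613 in WKY. In tissue, fewer cells of a type and less miRNA per cell cannot be told apart.

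The family was one of the abundant ones in all 3 groups. Its members held 9.77 ± 0.519% of miRNA reads in QDG, 9.53 ± 0.218% in SHR and 10.6 ± 0.534% in WKY libraries (SD, n = 6 each). As a sum of normalized read counts this was 138749 ± 8943 in QDG, 132893 ± 5246 in SHR and 151979 ± 10253 in WKY. On the authors' values the summed level ran from 123066 to 138295 in SHR, below each WKY library, which lay between 139685 and 168698. As a percent of miRNA reads SHR (9.19 to 9.76%) also lay below WKY (9.93 to 11.2%). Under TMM scaling, described below, the factors were 0.943 for SHR replicate 2 and 1.01 for WKY replicate 3. Once divided by them, the sums of these libraries, 138295 and 139685, change order, so the separation depends on scaling. Of single tested miRNAs 6.83% lay lower in SHR without overlap. QDG libraries spread from 128075 to 150329 and overlapped both groups. No test was made on the sum, since it is a score over chosen members. The percentages are of reads summed over all 599 entries. Normalized values over all entries summed to more than 1000000 in each library. Outside the family, miR-466b-2-3p and miR-466b-4-3p had the same fit for SHR against WKY (log2 0.3373 ± 0.2013, SE, mean log2 1.393). Their reads may thus have been counted in both entries. Whether reads of the members were counted in several entries is not known. Any read counted more than 1 time would raise the total behind the percentages.

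**Figure D1:**
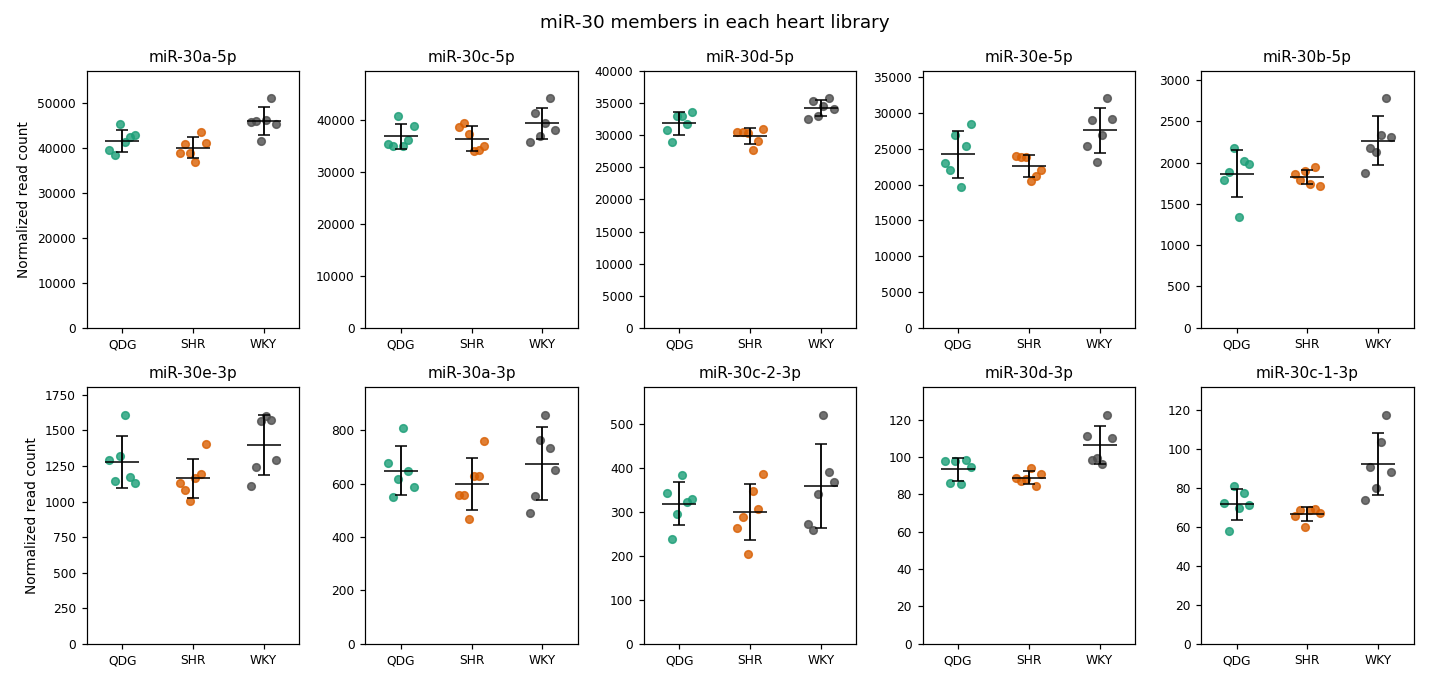
Normalized read count (y axis, linear from 0, a scale of its own per panel) of each miR-30 member in each library of the QDG, SHR and WKY groups. Points are libraries, the long bar is the mean and the whiskers are 1 SD (n = 6). The SHR points of miR-30d-5p, miR-30d-3p and miR-30c-1-3p all lie below the WKY points.

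The members kept a steep and stable order. Averaged over all 18 libraries, miR-30a-5p had 42471, miR-30c-5p 37515, miR-30d-5p 32010 and miR-30e-5p 24806 normalized read counts, and each exceeded the next in 18 of 18 libraries. miR-30a-5p ranked 7 or 8 among all miRNAs of a library, and miR-30e-5p between 13 and 20. miR-30b-5p followed far behind with 1986. Then came the 3p arms with 1280 for miR-30e-3p, 641 for miR-30a-3p, 326 for miR-30c-2-3p, 96.3 for miR-30d-3p and 76.8 for miR-30c-1-3p. The neighbouring pairs that changed places in 1 of 18 libraries were miR-30b-5p with miR-30e-3p, in a QDG library, and miR-30d-3p with miR-30c-1-3p, in a WKY library. The 3p arms together made up 1.75 ± 0.264% of the family in QDG, 1.67 ± 0.248% in SHR and 1.73 ± 0.284% in WKY. The reference row miR-30b-3p had 70.2 ± 4.91, 69.1 ± 3.03 and 74.6 ± 4.01 in those groups (SD, n = 6 each).

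The comparison of SHR with WKY asks how the hypertensive strain differs from the normotensive one. In SHR hearts 6 of 10 members were lower than in WKY and 0 were higher (limma on log2 of the value plus 1, adjusted p under 0.05 over 410 tested miRNAs). Of all tested miRNAs 15.1% were called lower. Members with lower values in SHR were the guides miR-30a-5p, miR-30d-5p, miR-30e-5p and miR-30b-5p and the 3p arms miR-30d-3p and miR-30c-1-3p. For each of these, 6 of 6 SHR libraries lay below the WKY mean, as they did for miR-30c-5p, which was not called. That count was not taken over all tested miRNAs. The differences of the called members were modest, between -0.20 and -0.45 on the log2 scale. The median over the 10 members was -0.25 on that scale, beside -0.07 over all tested miRNAs. All 10 members had log2 differences below 0, as did 58.5% of all tested miRNAs. All 10 had passed the filter on low values. The reference row miR-30b-3p had a log2 difference of -0.11 ± 0.09 (SE, limma adjusted p = 0.428).

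The largest difference was that of miR-30c-1-3p, the 3p arm of the Mir30c1 hairpin. Its normalized read count had a lowest, median and highest value of 59.7, 67.8 and 69.2 in SHR, against 73.8, 89.4 and 118 in WKY. On the authors' values all SHR libraries lay below all WKY libraries. The mean fell by 28.0%, with a log2 fold change of -0.45 ± 0.11 (SE, limma adjusted p = 0.00309). This was the member whose call held under each of the 5 other scalings tried, at -0.41 to -0.35 (limma adjusted p from 0.000883 to 0.00628), and with each single library left out. Its sister arm miR-30c-2-3p, from chromosome 9, had 205, 297 and 387 in SHR, against 259, 355 and 522 in WKY. Those groups overlapped, and its log2 fold change was -0.25 ± 0.16 (limma adjusted p = 0.295). The ratio of the sister arms was 0.229 ± 0.0410 in SHR and 0.266 ± 0.0542 in WKY (SD, n = 6 each). This difference was within the spread of the libraries (two-sided exact permutation p = 0.247), so an unequal change of the sister arms was not shown.

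Of the abundant guides, miR-30d-5p separated SHR from WKY without overlap on the authors' values. Its normalized read count had a lowest, median and highest value of 27769, 30444 and 31066 in SHR, against 32578, 34369 and 35805 in WKY (log2 -0.20 ± 0.06, limma adjusted p = 0.0238). Its partner arm miR-30d-3p had 84.5, 88.5 and 94.2 in SHR, against 96.5, 105 and 123 in WKY (log2 -0.25 ± 0.09, limma adjusted p = 0.0411). On these values both arms of Mir30d were thus fully below WKY. In all, 3 of 10 members had SHR libraries that did not overlap WKY and lay lower, as did 6.83% of all tested miRNAs. As a percent of all miRNA reads these 3 members overlapped between the groups. For miR-30d-5p, SHR replicate 6 had 2.262% and WKY replicate 1 had 2.257%. For miR-30d-3p, SHR replicate 4 had 0.00704% and WKY replicate 4 had 0.00661%. For miR-30c-1-3p, SHR replicate 4 had 0.00512% and WKY replicate 1 had 0.00511%. miR-30b-5p, made next to miR-30d, had 1721, 1829 and 1940 in SHR, against 1879, 2240 and 2779 in WKY (log2 -0.30 ± 0.10, limma adjusted p = 0.032). Of its SHR libraries 4 lay below the lowest WKY library.

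miR-30a-5p, the most abundant member, had a lowest, median and highest value of 36772, 39795 and 43547 in SHR, against 41566, 45814 and 50963 in WKY. SHR libraries lay below the lowest WKY library in 5 of 6 cases (log2 -0.20 ± 0.07, limma adjusted p = 0.03). For miR-30e-5p the values were 20545, 22932 and 23973 in SHR, against 23154, 28006 and 32054 in WKY (log2 -0.28 ± 0.09, limma adjusted p = 0.0204). Here 3 of 6 SHR libraries lay below WKY, whose own values were widely spread. The second most abundant guide, miR-30c-5p, did not pass: it had 33933, 36139 and 39305 in SHR, against 35799, 38786 and 44162 in WKY (log2 -0.11 ± 0.07, limma adjusted p = 0.302). The other 3p arms did not pass either. miR-30e-3p had 1001, 1151 and 1401 in SHR, against 1108, 1431 and 1603 in WKY (log2 -0.26 ± 0.11, limma adjusted p = 0.086). miR-30a-3p had 466, 592 and 760 in SHR, against 490, 692 and 859 in WKY (log2 -0.16 ± 0.13, limma adjusted p = 0.412). In both of these arms the 2 groups overlapped widely.

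**Figure D2:**
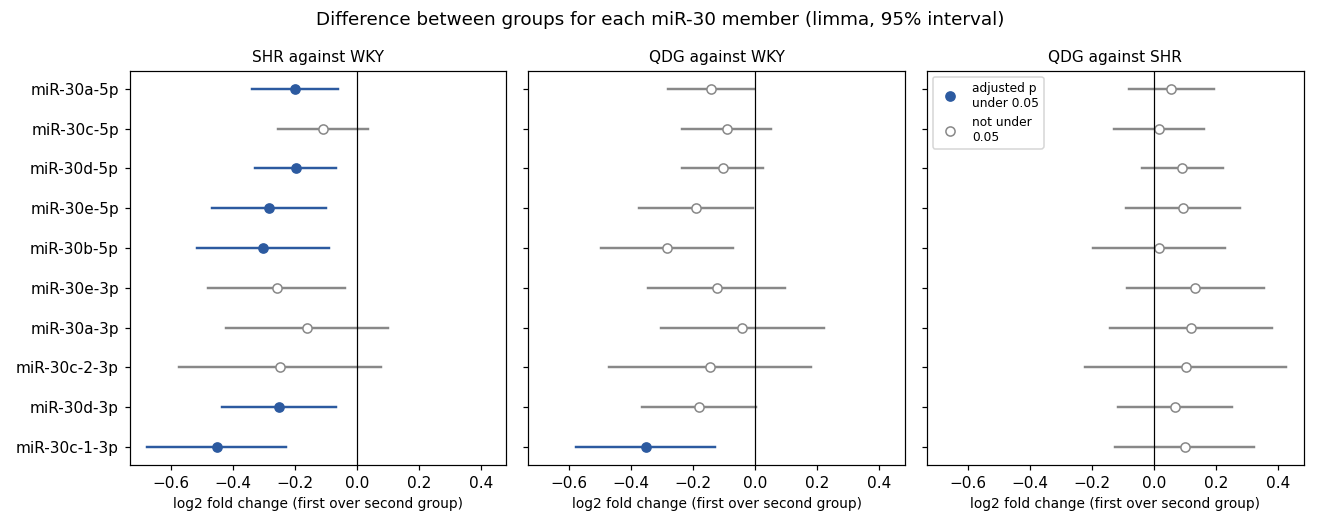
The log2 fold change (x axis, first over second group) of each miR-30 member (rows) for SHR against WKY, QDG against WKY and QDG against SHR, from limma, with 95% intervals as lines. Filled points have an adjusted p under 0.05: 6 members for SHR against WKY, 1 for QDG against WKY and 0 for QDG against SHR.

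How many members were called depended on how the libraries were scaled. The authors' values sum to different totals, 1338745 to 1443080 in SHR and 1401645 to 1508772 in WKY, and under the 5 other scalings 1 to 3 members were called lower. With TMM scaling, which balances libraries on the bulk of their miRNAs, 3 of 10 members were called lower (miR-30c-1-3p, miR-30b-5p and miR-30e-5p), while 12.7% of all tested miRNAs were. All 10 members kept log2 differences below 0 under the 5 scalings. miR-30a-5p, miR-30d-5p and miR-30d-3p were called under none of them. Over all miRNAs the calls split into 33 higher and 62 lower with the authors' values, against 46 and 47 with RLE and 49 and 38 with upper quartile scaling.

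**Figure D3:**
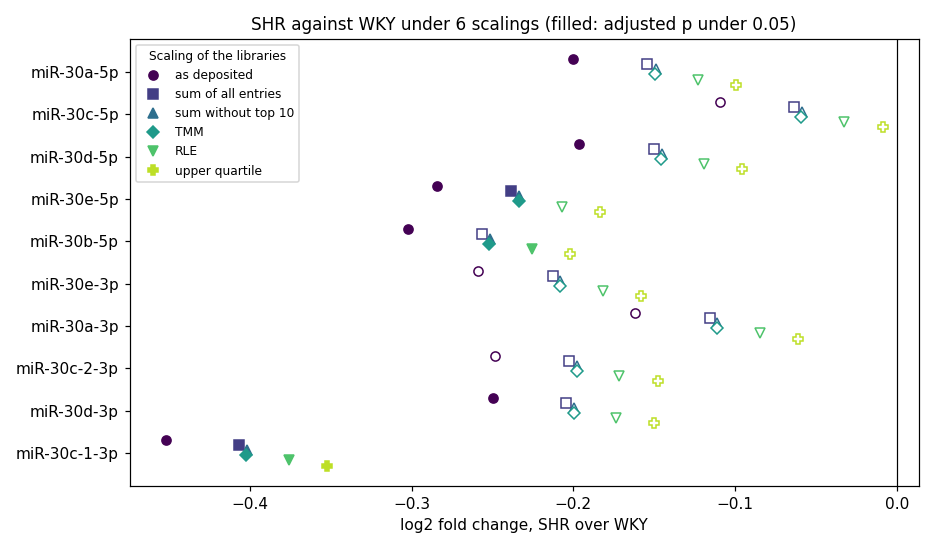
The log2 fold change of SHR over WKY (x axis) of each miR-30 member (rows) under the authors' scaling and 5 others (symbols). Filled symbols have a limma adjusted p under 0.05. All symbols lie below 0, and miR-30c-1-3p is filled under all 6.

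Single libraries mattered too. Without WKY replicate 5, the library with the highest level of 7 members, 1 member was called. Without SHR replicate 4, in which miR-30a-5p, miR-30c-5p, miR-30d-5p and miR-30e-5p were each at the SHR minimum, 2 were, and without SHR replicate 1 there were 3. miR-30d-5p and miR-30e-5p lost their calls without WKY replicate 5 (limma adjusted p = 0.0533 and 0.0686) or SHR replicate 4 (0.0577 and 0.0506). miR-30a-5p did so without these (0.0928 and 0.0759), SHR replicate 1 (0.0621) or SHR replicate 3 (0.0524). The call of miR-30b-5p was lost when any 1 of 7 libraries was dropped, SHR replicate 1, 2, 4 or 6 or WKY replicate 4, 5 or 6 (limma adjusted p from 0.0504 to 0.102). That of miR-30d-3p was likewise lost on dropping any 1 of 7, SHR replicate 1, 2, 3, 5 or 6 or WKY replicate 5 or 6 (limma adjusted p from 0.0533 to 0.105), and also without WKY replicate 1 and SHR replicate 5 together (0.069). miR-30e-3p passed without WKY replicate 1 (-0.32, limma adjusted p = 0.0245), without SHR replicate 6 (-0.31, 0.0428), or without WKY replicate 1 and SHR replicate 5 together (-0.33, 0.0326).

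Levels of cell type markers in the same libraries are given beside these results. Of the 8 cardiac muscle miRNAs 2 were higher and 0 lower in SHR than in WKY (limma adjusted p under 0.05). These were miR-1-3p, a muscle miRNA (log2 0.74 ± 0.08), and miR-208b-3p of the beta-myosin gene (0.89 ± 0.16). The others were not called: miR-1b had -0.12, miR-133a-3p -0.013, miR-133a-5p 0.041, miR-133b-3p -0.33, miR-208a-3p -0.16 and miR-499-5p -0.19. Of 4 fibroblast and stromal miRNAs 1 was higher, miR-21-5p (0.42 ± 0.11). The uncalled ones were miR-199a-3p (0.035), miR-199a-5p (0.13) and miR-214-3p (0.083). The summed level of that list was 30529 to 52244 in SHR and 27462 to 32170 in WKY. miR-21-5p had the highest mean of the list, 14.4 on the log2 scale, beside 13.4 for miR-199a-3p. Of 5 leukocyte miRNAs 1 was higher, miR-155-5p (0.48 ± 0.14), with sums of 1223 to 1407 in SHR and 1094 to 1563 in WKY. Among the uncalled ones miR-142-3p (0.20) and miR-223-3p (0.22) lay above 0, and miR-142-5p (-0.13) and miR-150-5p (-0.24) below. None of 4 smooth muscle, 2 endothelial, 3 red blood cell, 1 skeletal muscle and 1 liver marker was called. Their sums overlapped between the groups. Of 5 epithelial markers miR-200c-3p was higher (0.36 ± 0.12) and of 3 neuronal markers miR-129-5p was lower (-0.55 ± 0.17). The uncalled epithelial markers were miR-200a-3p (-0.35), miR-200b-3p (-0.32), miR-205 (-0.40) and miR-141-3p (0.062). miR-205 and miR-124-3p were at 0 in some libraries. For QDG against WKY the same cardiac muscle miRNAs, miR-1-3p (0.70 ± 0.08) and miR-208b-3p (0.72 ± 0.16), and miR-21-5p (0.43 ± 0.11) were higher, as were 2 of 5 leukocyte miRNAs, miR-155-5p (0.41 ± 0.14) and miR-142-3p (0.38 ± 0.13), while 1 of 3 neuronal markers, miR-129-5p, was lower (-0.86 ± 0.17). The fibroblast and stromal sum was 34754 to 39095 in QDG and 27462 to 32170 in WKY, without overlap. This sum includes miR-21-5p, the only marker of that list called for QDG against WKY. For QDG against SHR no marker was called. The part of any of these in the miR-30 differences was not tested.

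The comparison of QDG with SHR asks whether treatment changed the family within the hypertensive strain. No member was called in either direction (limma adjusted p = 0.983 for each), and neither was any of the 410 tested miRNAs (0%). At an unadjusted p under 0.05 limma picked 0 of 10 members and 3.66% of all miRNAs. edgeR and DESeq2 on the recovered reads called 0 members and had 0 members at an unadjusted p under 0.05, where they had 18 and 20 of all miRNAs. All 10 log2 differences lay above 0, between 0.016 and 0.13, where 54.1% of all miRNAs did. Under 4 of the 5 other scalings miR-30c-5p and miR-30b-5p lay below 0. The groups overlapped in every member, and 0% of all miRNAs separated them.

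The values show how near the groups were. miR-30a-5p had a lowest, median and highest value of 38274, 41839 and 45138 in QDG, against 36772, 39795 and 43547 in SHR, and its 95% interval of the log2 fold change ran from -0.08 to 0.19. miR-30d-5p had 28904, 32389 and 33703 in QDG, against 27769, 30444 and 31066 in SHR, with an interval of -0.039 to 0.22. For 4 of 6 QDG libraries miR-30d-5p exceeded the highest SHR library. miR-30c-1-3p had 58.0, 71.7 and 81.0 in QDG, against 59.7, 67.8 and 69.2 in SHR, with an interval of -0.13 to 0.32. There 5 QDG libraries lay above all SHR libraries and 1 lay below them all, QDG replicate 2. miR-30d-3p, the other arm of Mir30d, had 85.7, 96.2 and 98.4 in QDG, against 84.5, 88.5 and 94.2 in SHR, with 4 QDG libraries above all SHR libraries. These intervals leave room for a difference of either sign, and the lack of a call does not show that the groups were equal.

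Of the other members, miR-30c-5p had a lowest, median and highest value of 34934, 35710 and 40662 in QDG, against 33933, 36139 and 39305 in SHR. miR-30e-5p had 19637, 24173 and 28389 in QDG, against 20545, 22932 and 23973 in SHR. For miR-30e-5p and likewise miR-30b-5p, 3 QDG libraries lay above all SHR libraries and 1 lay below them all. Among 3p arms miR-30e-3p had the largest log2 difference of the family, 0.13 with an interval of -0.087 to 0.36. Its values were 1128, 1234 and 1612 in QDG, against 1001, 1151 and 1401 in SHR. miR-30c-2-3p, with 238, 326 and 384 in QDG, against 205, 297 and 387 in SHR, had the widest interval, -0.22 to 0.43.

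QDG libraries varied more than SHR libraries in some guides, and so did WKY libraries. miR-30b-5p had a coefficient of variation of 15.5% in QDG, 4.81% in SHR and 13.2% in WKY. For miR-30e-5p it was 13.5% in QDG, 6.72% in SHR and 11.4% in WKY. The lowest QDG value of both came from replicate 4, with 1340 for miR-30b-5p and 19637 for miR-30e-5p. In that same library miR-30e-3p and miR-30a-3p were at the QDG maximum, with 1612 and 810. Some 3p arms varied less in QDG than in SHR. The coefficient of variation of miR-30a-3p was 14.0% in QDG and 16.5% in SHR, and that of miR-30c-2-3p 15.3% and 21.2%.

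QDG against WKY compares treated hypertensive rats with the normotensive strain. Of the 10 members 1 was called lower and 0 higher, where 10.5% of all tested miRNAs were lower. This was miR-30c-1-3p again, with 58.0, 71.7 and 81.0 in QDG, against 73.8, 89.4 and 118 in WKY (log2 -0.35 ± 0.11, limma adjusted p = 0.0218). All 6 QDG libraries lay below the WKY mean, and 4 of them below the lowest WKY library. miR-30b-5p came next with 1340, 1935 and 2182 in QDG, against 1879, 2240 and 2779 in WKY (log2 -0.29 ± 0.10, limma adjusted p = 0.0545). The remaining members had log2 differences of -0.19 to -0.04. The median over the members was -0.14, beside -0.06 over all miRNAs. No member separated QDG from WKY without overlap, while 4.15% of all miRNAs did so on the lower side. All 10 members had log2 differences below 0, as did 58.5% of all tested miRNAs. With upper quartile scaling 3 of the 10, miR-30c-5p, miR-30d-5p and miR-30a-3p, lay above 0, and with RLE miR-30a-3p did. Over all miRNAs the calls split into 30 higher and 43 lower with the authors' values, against 42 and 40 with RLE and 55 and 28 with upper quartile scaling.

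The call of miR-30c-1-3p and the lack of one for miR-30b-5p each depended on single choices. miR-30c-1-3p was not called with upper quartile scaling (limma adjusted p = 0.0636) or with the 2 groups fitted alone (0.054). It was also not called without WKY replicate 4 (0.0582), WKY replicate 5 (0.0777) or QDG replicate 2 (0.0625). miR-30b-5p passed with TMM, RLE and the scaling without the 10 most abundant miRNAs (limma adjusted p from 0.0212 to 0.0345), in edgeR (0.0324) and DESeq2 (0.023), and without WKY replicate 1 (0.0197) or QDG replicate 3 (0.028). SHR against WKY and QDG against WKY share the WKY libraries, and QDG against SHR and SHR against WKY share the SHR libraries. The log2 fold change of miR-30c-1-3p was -0.45 for SHR against WKY, -0.35 for QDG against WKY and 0.099 for QDG against SHR. For miR-30d-5p it was -0.20, -0.11 and 0.091 in that order of comparisons.

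Ratios between members within a library do not depend on how libraries are scaled. They ask whether arms of a hairpin, or arms of different hairpins, moved by unequal amounts. In all 7 ratios were tested in 3 comparisons, and 0 of the 21 tests passed (two-sided exact permutation tests of the mean log2 ratio, smallest possible p 0.00216, smallest adjusted p 0.732). None had an unadjusted exact p under 0.05. The closest for SHR against WKY was miR-30c-1-3p over miR-30e-3p, arms made from neighbouring hairpins within Nfyc. This ratio was 0.0576 ± 0.00522 in SHR and 0.0664 ± 0.00844 in WKY (SD, n = 6 each). All 6 SHR libraries lay below the WKY mean, with a log2 difference of -0.19 ± 0.10 (SE, exact permutation p = 0.0823, adjusted 0.732). The same ratio was 0.0566 ± 0.00858 in QDG and differed from WKY by -0.23 ± 0.12 (exact permutation p = 0.0931, adjusted 0.732).

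The proportions of 5p and 3p arms did not differ between the groups beyond the spread of the libraries. miR-30a-5p was 65.0 ± 8.83 times as abundant as miR-30a-3p in QDG, 68.0 ± 10.4 times in SHR and 70.6 ± 15.6 times in WKY (SD, n = 6 each). For miR-30d the ratio was 342 ± 25.5 in QDG, 336.5 ± 20.7 in SHR and 324 ± 30.8 in WKY. miR-30e was the hairpin with the most balanced arms of these, at 19.4 ± 4.34 in QDG, 19.7 ± 3.12 in SHR and 20.1 ± 3.57 in WKY. Arm ratios differed several-fold between hairpins and by little between groups. The log2 differences of the arm ratios between groups lay between -0.10 and 0.077 in the 9 tests, with SE of 0.057 to 0.18.

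**Figure D4:**
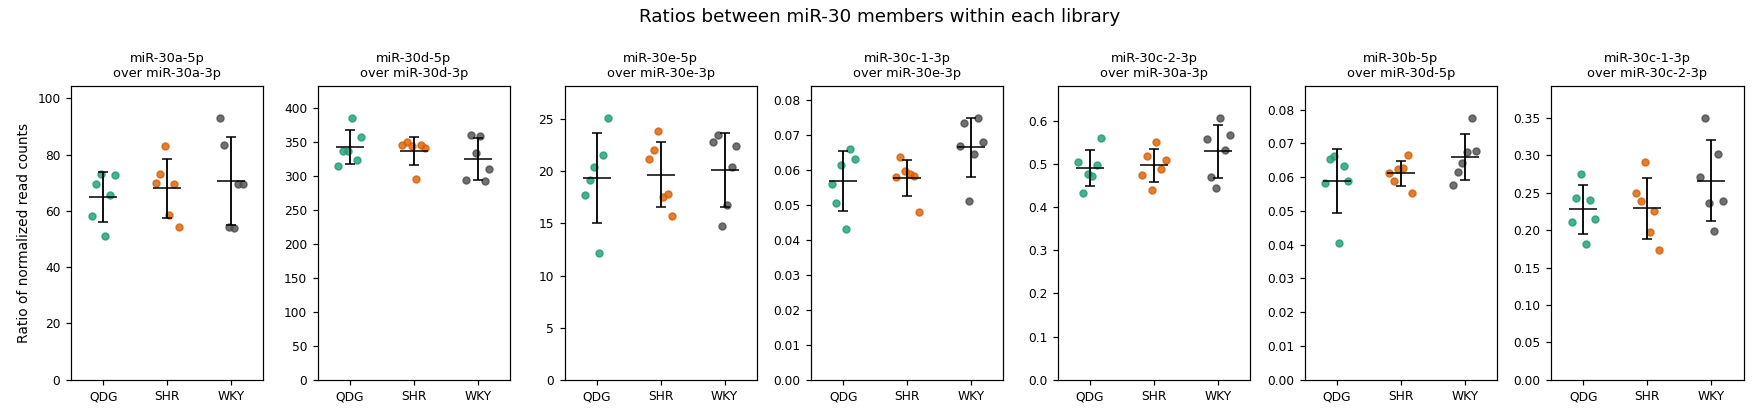
Ratio of normalized read counts (y axis, linear from 0, a scale of its own per panel) between pairs of miR-30 members in each library of the QDG, SHR and WKY groups. Points are libraries, the long bar is the mean and the whiskers are 1 SD (n = 6). The 3 groups overlap in all 7 ratios.

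Across single libraries 3 of the 5 3p arms, miR-30e-3p, miR-30a-3p and miR-30c-2-3p, each lay nearest to another 3p arm. Likeness was measured as the root mean square difference of log2 values, each centred on its own mean over the 18 libraries. The closest pair of members was miR-30a-5p with miR-30d-5p (0.0650), followed by miR-30c-5p with miR-30d-5p (0.0745). These abundant guides stayed near each other from library to library, and the measure is small for rows that vary little. In both pairs the members come from different chromosomes. miR-30a-5p and miR-30c-5p (0.0901) in part share a cluster on chromosome 9, through Mir30c2. Among 3p arms the closest were miR-30e-3p and miR-30a-3p (0.0957), each nearer to the other than to the 5p arm of its own hairpin (0.267 for miR-30e and 0.236 for miR-30a). miR-30c-2-3p also lay nearer to miR-30a-3p (0.133) than to miR-30c-5p (0.312). The other 3p arms did not: miR-30d-3p lay nearest to miR-30a-5p (0.101) and miR-30d-5p (0.108), and miR-30c-1-3p nearest to miR-30a-5p (0.163), miR-30b-5p (0.164) and miR-30e-5p (0.170). miR-30e-3p, miR-30a-3p and miR-30c-2-3p were all at the SHR minimum in replicate 3 and at the SHR maximum in replicate 6, at the WKY maximum in replicate 4 and at the QDG maximum in replicate 4. This is a description of 18 libraries, with depth and composition shared by all rows of a library.

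**Figure D5:**
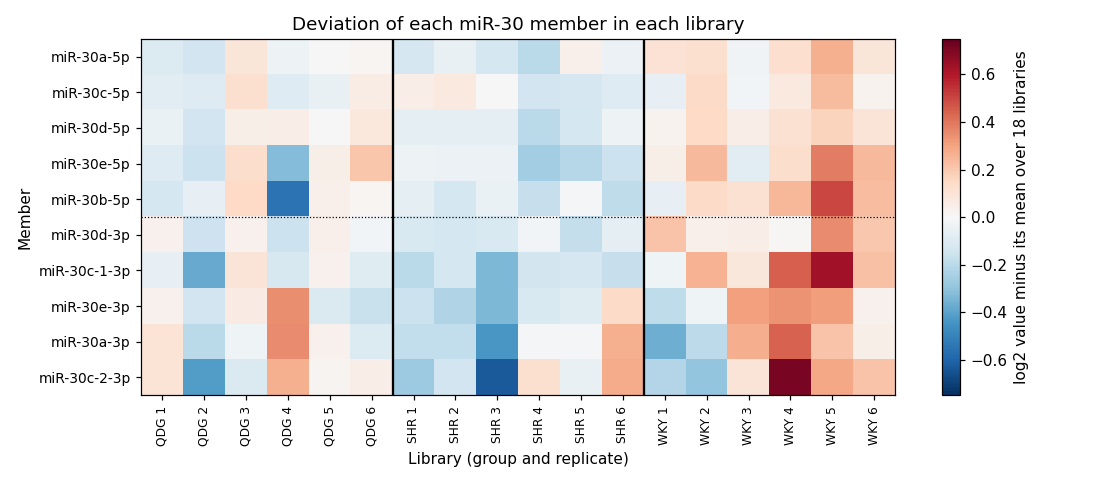
Deviation of each miR-30 member (rows, 5p arms above the dotted line) from its own mean over 18 libraries, as log2 of the normalized read count plus 1 (colour, red above and blue below the mean), in each QDG, SHR and WKY library (columns). miR-30b-5p is lowest in QDG replicate 4, in which the 3 bottom rows are above their means. Those rows are lowest in SHR replicate 3 and, among WKY libraries, highest in replicate 4.

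By the same measure, the 5 miRNAs outside the family nearest to the summed 5p members were sought among 239 with a mean of at least 10. They were miR-26a-5p (0.0861), let-7g-5p (0.0920), miR-455-5p (0.104), miR-103-3p (0.106) and miR-361-3p (0.106), beside a median of 0.218 over the 239. The measure favours miRNAs that vary little. For SHR against WKY their log2 fold changes were -0.19, -0.21, -0.19, -0.077 and -0.29 in that order. Of these let-7g-5p and miR-361-3p passed (limma adjusted p = 0.022 and 0.0195).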

How the data were processed

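Small RNA was sequenced in 18 rat heart libraries, 6 per group. Per the labels' protocols, RNA was extracted with Trizol and libraries were built with a multiplex small RNA set from NEB. FastQC, TopHat2 and limma are listed, with neither version nor role, per the submitters' processing notes. Per the file headers, the authors deposited normalized read counts, a signal per mature miRNA. Over all libraries 10782 of 10782 values lay within 0.01 of a whole number of reads once multiplied by the library's divisor and divided by 1000000, so whole reads were recovered. On these reads edgeR called 89 miRNAs for SHR against WKY, 0 for QDG against SHR and 83 for QDG against WKY. Intervals and ranges do not cover assignment of reads to several entries.

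miRNAs with at least 1 in at least 6 libraries were kept (410 of 599). limma (3.58.1, R 4.3.3; trend, robust) was fitted to log2(value + 1) of all 18 libraries without covariates, with Benjamini-Hochberg adjustment over 410 and a threshold of 0.05; the pseudocount of 1 understates folds of scarce miRNAs. Ratios used exact permutation tests over 21 tests. edgeR (4.0.16) and DESeq2 (1.42.0) on recovered reads, other scalings, pseudocounts and filters, a replicate block and left-out libraries were alternatives. The fit was tested on simulated data whose planted changes were larger than any difference of the members, so that test says nothing about differences of their size. Replicates within a group differed by more than counting noise (chi-square per degree of freedom at least 45.5), so each counted as 1 sample. All 10 members are named by rule, with the row miR-30b-3p, seed relatives and the 5 nearest miRNAs. The members and lists were chosen with earlier results of these data known.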

Additional observations from a re-analysis of the deposited data

Results flagged for a closer look

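In groups of 6 libraries, a library was singled out where its gap to the nearest other exceeded Dixon's 95% value. Chance does this in about 1 of 20 groups, and 4 of 54 groups checked had one. miR-30c-1-3p was low in SHR replicate 3, at 59.7 normalized read counts against 65.6 in the next library. The ratio of miR-30d-5p to miR-30d-3p was low in SHR replicate 4, at 294.6 against 341 in the next. The ratio of miR-30c-1-3p to miR-30e-3p was low in SHR replicate 6, at 0.0478 against 0.0579. The ratio of miR-30b-5p to miR-30d-5p was low in QDG replicate 4, at 0.0406 against 0.0581.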

How the results depend on the processing

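For SHR against WKY 6 members were called. There were 3 with TMM scaling, the scaling without the 10 most abundant, edgeR and DESeq2, 2 with RLE or the sum of all entries (chosen after seeing the data, as was leaving out WKY replicate 1 with SHR replicate 5), and 1 with upper quartile scaling. With 1 library left out there were 1 to 7. For QDG against WKY 1 member was called, 2 with TMM, RLE, the scaling without the 10 most abundant, the filter of 10, the replicate block, edgeR, DESeq2 or without WKY replicate 1 and SHR replicate 5, and 0 with upper quartile scaling or the 2 groups fitted alone. With 1 library left out there were 0 to 2. For QDG against SHR the count was 0 throughout.

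The numbers pair no libraries by the labels, and deviations of same-numbered libraries correlated by -0.174 to 0.232 (SHR with WKY), 0.00412 to 0.202 (QDG with WKY) and -0.127 to 0.12 (QDG with SHR). With the replicate block the counts were 6, 2 and 0; miR-30b-5p then passed for QDG against WKY (limma adjusted p = 0.043). No ratio was called under any setting. The sign-flip test by replicate number cannot go below 0.0312.

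Signs turned in uncalled members. For QDG against SHR, miR-30c-5p had -0.0064 with TMM, -0.014 with RLE, -0.034 without the 10 most abundant, -0.0096 with the sum of all entries, -0.0095 in edgeR, -0.018 in DESeq2 and -0.0010 without WKY replicate 1 and SHR replicate 5. miR-30b-5p had -0.0057, -0.014, -0.033 and -0.0089 under those scalings and -0.0040 in DESeq2. With 1 library left out miR-30c-5p had -0.013 to 0.039, miR-30b-5p -0.031 to 0.11 and miR-30c-2-3p -0.00037 to 0.18. For QDG against WKY miR-30a-3p had 0.0045 with RLE, 0.066 with upper quartile scaling and 0.0052 in DESeq2, and upper quartile scaling gave 0.015 for miR-30c-5p and 0.0030 for miR-30d-5p. With 1 library left out miR-30a-3p had -0.13 to 0.033. Uncalled log2 ratios turned too on leaving out 1 library. For SHR against WKY they ran from -0.11 to 0.047 (miR-30a arms) and -0.11 to 0.037 (miR-30e arms), and for QDG against WKY from -0.15 to 0.060 (miR-30e arms). For QDG against SHR they ran from -0.13 to 0.0045 (miR-30a arms), -0.014 to 0.047 (miR-30d arms), -0.12 to 0.086 (miR-30e arms), -0.088 to 0.040 (miR-30c-1-3p over miR-30e-3p), -0.0561 to 0.0173 (miR-30c-2-3p over miR-30a-3p), -0.11 to 0.029 (miR-30b-5p over miR-30d-5p) and -0.0803 to 0.0690 (miR-30c-1-3p over miR-30c-2-3p). The causes were not tested.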
